A study of Mus musculus with 21 samples.

Results

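The 21 tumours of a mouse liver cancer study were ordered by how much T cell RNA they held, and the 7 with the most were set against the 7 with the least. Each tumour got a T cell score, the mean log2 signal of Cd3d, Cd3e, Cd3g and Cd2 after each gene had been centred on its mean over the 21 tumours, with the brightest probe set taken for each gene. The 14 tumours at the ends of this order are described here as T cell rich and T cell poor, and the 7 in between were left out of the comparison. The tumours were selected on these measured values, so differences between the groups in any gene of the same arrays are a description and carry no test.

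Tumours were grown from Hepa1-6, a mouse hepatoma cell line, placed subcutaneously in C57BL/6J mice, all females aged 5 to 6 weeks, and each animal gave 1 array of total RNA. Mice were randomised when tumours reached 200 mm3 and tumours were collected on day 13. The placebo arm of 6 mice received the drug vehicle and polyclonal IgG. The lenvatinib arm of 5 mice received 10 mg/kg by mouth each day, lenvatinib being an inhibitor of receptor tyrosine kinases of the VEGF and FGF families. The anti-PD1 arm of 5 mice received 10 mg/kg of antibody clone J43 into the peritoneum at 3-day intervals, 5 doses in all, and the combination arm of 5 mice received both agents. Whether the single-agent arms also received vehicle or IgG is not given in the sources used here. The site under the skin differs from liver, where such tumours arise, and a bulk tumour sample can hold skin, fat or muscle from around it.

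The CD3 chains are the signalling subunits that carry the T cell receptor to the cell surface, and Cd2 is an adhesion receptor of T and NK cells. T cells enter tumours from blood along chemokine gradients, recognise peptides on major histocompatibility complex (MHC) molecules and, when of the CD8 class, kill through perforin and granzymes. PD-1 is an inhibitory receptor on activated T cells, and its ligands are made by tumour cells, macrophages and dendritic cells.

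The 7 T cell rich tumours came from 3 arms and the 7 T cell poor tumours from 3 arms, as the plot of scores by tumour shows. The highest score was 1.88 in combination mouse 4, followed by 1.38 in combination mouse 5 and 1.21 in combination mouse 2. Placebo mouse 3 had 0.89, combination mouse 3 had 0.87, lenvatinib mouse 5 had 0.86 and placebo mouse 6 had 0.54. The combination thus gave 4 of the 7 rich tumours, placebo 2, lenvatinib 1 and anti-PD1 none. At the other end, anti-PD1 mouse 2 had -2.85, anti-PD1 mouse 5 had -1.05, anti-PD1 mouse 1 had -0.87 and anti-PD1 mouse 3 had -0.74. Lenvatinib mouse 3 had -0.81, lenvatinib mouse 1 had -0.78 and combination mouse 1 had -0.51. The anti-PD1 arm gave 4 of the 7 poor tumours, lenvatinib 2, the combination 1 and placebo none.

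The edges of the groups were not equally sharp. On the rich side the last member at 0.54 stood 0.21 above placebo mouse 4, the nearest tumour left out, at 0.33. On the poor side combination mouse 1 at -0.51 stood only 0.014 below lenvatinib mouse 4 at -0.50. The same 7 rich tumours came out under each of 8 other ways to build the score, and 5 to 7 of the 7 poor tumours did. Lenvatinib mouse 4 replaced a poor tumour under 4 of the 8. Most of these ways reuse genes of the score, so they could differ little. Only the score from 4 other T cell genes did not. It kept 5 of the 7 poor tumours and brought in placebo mouse 2 and lenvatinib mouse 2, so placebo then gave a poor tumour.

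**Figure D1:**
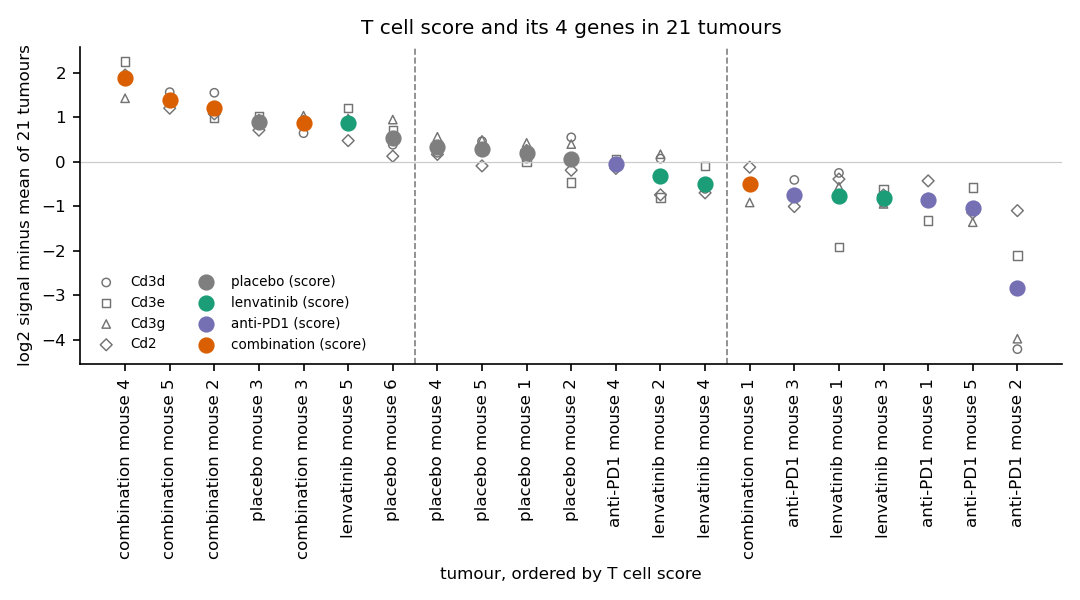
T cell score (filled circles, coloured by arm) and the 4 genes it averages (open marks) in 21 tumours, as log2 signal minus the mean of all tumours. Dashed lines bound the 7 rich and 7 poor tumours, and anti-PD1 mouse 2 at -2.85 lies far below the others.

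By arm, the score was 0.97 ± 0.90 (SD, n = 5) in the combination, 0.38 ± 0.29 (n = 6) in placebo, -0.31 ± 0.69 (n = 5) in lenvatinib and -1.11 ± 1.04 (n = 5) in anti-PD1. Placebo and lenvatinib differed by about the larger of their SDs, and the other neighbours in this order by less. Within the combination the range ran from -0.51 to 1.88, and within lenvatinib from -0.81 to 0.86. Arm means took up 55.3% of the variance of the score, so the rich and poor groups differ in arm as well as in T cell RNA, and the 2 cannot be told apart over all 14 tumours.

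The 4 genes of the score went together, which the rule fixed. Cd3d had log2 signals of 8.61 to 10.11 with a median of 9.10 in rich tumours and 4.02 to 7.98 with a median of 7.33 in poor tumours. Cd3e ran from 8.07 to 9.62 against 5.25 to 6.87, Cd3g from 9.58 to 10.06 against 4.65 to 8.07, and Cd2 from 6.95 to 8.77 against 5.67 to 6.70. Cd3g was the steadiest of the 4 in rich tumours, with an SD of 0.20, and the low ends of Cd3d and Cd3g came from anti-PD1 mouse 2. In a bulk sample, fewer T cells and less RNA per T cell cannot be told apart, and the same holds for each cell type below.

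Of 22206 probe sets, 441 (1.99%) were higher in every rich tumour than in every poor tumour, the 4 genes of the score among them, and 45 (0.203%) were lower in every rich tumour. A rich mean at least 1 log2 unit (2-fold) above the poor mean was seen for 990 probe sets (4.46%), and a mean at least 1 below for 190 (0.856%). The median difference of the 441 was 1.52 and that of the 45 was -0.62, beside -0.07 over all probe sets. The 7 tumours left out had means between those of the groups for 439 of the 441 and 43 of the 45. These probe sets were picked for separate ends of the same order, so most such means had to fall between. The shares over all probe sets are the background for the counts of each gene list below. Nothing is read from a list whose share is near them.

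Array medians ran from 5.33 to 5.49. The spiked hybridization controls were brighter on 6 arrays (11.3 to 11.7) than on the other 15 (10.3 to 10.9). The same 6 arrays had a narrower spread of signals, with interquartile ranges of 2.41 to 2.82 log2 units against 3.00 to 3.25. Of those 6 arrays, 1 was of a rich tumour and 3 of poor tumours. Without them, 1040 probe sets were higher and 565 lower with no overlap in 6 rich against 4 poor tumours. Fewer tumours then have to be kept apart for a probe set to count. How far group size or the narrower spread of those arrays set the counts was not tested. The smaller groups gave list differences of 1.82 for macrophage genes (from 1.73) and 1.78 for T cell receptor genes (from 1.58), but other lists moved further. Endothelial genes went from 0.40 to 0.04, mast cell genes from 0.39 to 0.14 and muscle genes from 0.48 to 0.23, while interferon-gamma response genes went from 0.33 to 0.55 and cholesterol synthesis genes from -0.51 to -0.73.

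The counts also depended on single tumours. Leaving a tumour out can only keep or raise such a count, so only the size of a rise differs between tumours. Without anti-PD1 mouse 2 the counts were 824 higher and 228 lower, without placebo mouse 6 they were 761 and 106, and without anti-PD1 mouse 1 the count of lower probe sets was 89. Muscle genes were high in combination mouse 2 (list score 5.01) and placebo mouse 3 (1.55) of the rich tumours, and in anti-PD1 mouse 2 (3.46) of the poor tumours, and lay between -2.01 and -1.35 in the other 11. All 9 listed muscle genes were measured. Leaving out combination mouse 2 and anti-PD1 mouse 2 together left 859 probe sets higher and 260 lower. Leaving out combination mouse 2 alone left 458 and 59. The part of muscle genes in these counts was not tested apart from other traits of anti-PD1 mouse 2.

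Genes of the T cell receptor complex and its signalling outside the score were higher in rich tumours throughout the list. All 13 measured genes had a higher mean, and 7 of the 13 had no overlap between the groups. The list score, the mean of the members' centred log2 signals, was 0.89 ± 0.47 (SD, n = 7) in rich and -0.69 ± 0.28 (n = 7) in poor tumours. Ptpn22, a phosphatase that restrains receptor signalling, ran from 7.72 to 8.96 in rich and from 4.82 to 6.65 in poor tumours, a 6.13-fold difference of means. Sh2d1a, the adaptor SAP of SLAM family receptors, was 5.00-fold higher, with 7.25 ± 0.49 against 4.92 ± 0.85. Trat1, which binds the receptor complex, and Cd96, a receptor of T and NK cells, had poor means of 3.42 and 4.06, below the median of 4.08 of the array's negative controls, so no fold is given. Zap70, the kinase recruited by phosphorylated CD3 chains, was 7.60 ± 0.47 against 5.91 ± 0.47, and Lat, the scaffold it phosphorylates, was 8.47 ± 0.61 against 6.96 ± 0.58, both without overlap.

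Genes of CD8 T cells and cytotoxic granules gave the next picture. The 12 measured genes all had higher means in rich tumours, 4 of them without overlap, and the list score was 0.75 ± 0.46 against -0.70 ± 0.60 (SD, n = 7 each). Cd8b1, the beta chain of the CD8 coreceptor, ran from 8.79 to 10.51 in rich and from 4.92 to 8.02 in poor tumours, 5.58-fold apart. Cd8a, its partner chain, was 3.48-fold higher on average, but 1 of the 7 rich tumours lay within the poor range of 4.74 to 6.40. Gzmk, a granule protease, was 6.76 ± 0.71 against 4.95 ± 0.75 without overlap, and Nkg7, a granule membrane protein, 9.45 ± 0.33 against 7.77 ± 1.12 without overlap. Gzmb and Prf1, the granzyme and perforin of killing, overlapped, with means of 7.69 against 6.43 and 6.23 against 5.44. Placebo mouse 6 had the lowest list score of the rich tumours, -0.14, while the other 6 were at 0.59 to 1.19.

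Genes of CD4 and regulatory T cells differed less. The list score was 0.49 ± 0.33 against -0.41 ± 0.15, and 2 of 7 measured genes had no overlap. Tnfrsf4, the costimulatory receptor OX40, was 8.20 ± 0.73 against 6.63 ± 0.43, and Cd4 was 6.72 ± 0.64 against 5.71 ± 0.22, each with 6 of 7 rich tumours above all poor tumours. Cd40lg, the ligand by which helper T cells signal to B cells and dendritic cells, had no overlap (3.90 to 4.95 against 2.90 to 3.79), with a poor mean below the negative controls. Ccr8, a chemokine receptor of regulatory T cells, was 5.31 ± 0.76 against 4.02 ± 0.72. Il2ra, the alpha chain of the interleukin-2 receptor, was below the negative controls in both groups, so its 3.43 and 3.52 carry no order.

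PD-1, the target of the antibody, was higher on average in rich tumours but overlapped. Pdcd1, its gene, ran from 5.84 to 7.59 in rich tumours and from 3.63 to 6.28 in poor tumours, a difference of 1.75. The rich tumour within the poor range was placebo mouse 6, at 5.84, and lenvatinib mouse 3 was the poor tumour at 6.28. The ligand gene Pdcd1lg2 (PD-L2) was 9.93 ± 0.90 against 7.81 ± 1.48, again with placebo mouse 6, at 8.06, inside the poor range. The ligand gene Cd274 (PD-L1) differed by 0.73, less than its SD of 0.99 in poor tumours, and only 2 of 7 rich tumours lay above all poor tumours.

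The list of inhibitory receptors and related genes scored 0.55 ± 0.34 against -0.46 ± 0.37, with all 9 means higher and 1 of 9 without overlap. That gene was Entpd1, the ectoenzyme CD39, at 9.87 ± 0.28 against 8.37 ± 0.25, so no receptor gene of the list had separate groups. Ctla4, which competes with CD28 for its ligands, was 5.66 ± 0.80 in rich tumours, and its poor mean of 3.89 was below the negative controls. Tigit, a receptor of T and NK cells, differed by 0.23, and its highest value in either group, 7.35, was in the poor tumour anti-PD1 mouse 5.

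Costimulatory genes had no overlap more often, 5 of 10 measured, and the list score was 0.57 ± 0.27 against -0.51 ± 0.37. In rich tumours 9 of the 10 had a higher mean. The other, Tnfsf4, had a lower mean with wide overlap, 3.76 to 6.49 against 3.71 to 7.26. Cd226, an activating receptor that shares ligands with Tigit, ran from 8.03 to 9.18 in rich and from 5.03 to 6.77 in poor tumours, 8.06-fold apart. Icos, an inducible receptor of activated T cells, was 5.86-fold higher, 7.59 ± 0.35 against 5.04 ± 0.66. Cd86 and Cd80, the CD28 ligands carried by antigen-presenting cells, were 3.43-fold and 2.74-fold higher. Placebo mouse 6, the lowest rich tumour for Pdcd1, had Cd226 at 9.02, near the top of its range.

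Il7r, the receptor chain for the survival cytokine interleukin-7, had the largest difference among the listed genes of naive and recirculating lymphocytes. It ran from 8.20 to 9.18 with rich tumours close together, and from 3.48 to 6.35 in poor tumours, a difference of 3.21. The other named genes of this list overlapped. Lef1, a transcription factor of naive T cells that is also active in Wnt signalling, was 8.82 in combination mouse 4 and 5.65 to 5.95 in the other 6 rich tumours, while poor tumours ran from 4.55 to 6.46. The list difference of 0.94 was 0.71 without combination mice 3 and 4.

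NK cell genes were the tightest list among rich tumours, whose scores ran only from 0.58 to 0.84 (SD 0.10). Poor tumours ran from -1.29 to -0.35, and the difference was 1.30. All 9 means were higher and 3 of 9 genes had no overlap. Klrd1, the CD94 chain of NK and CD8 T cell receptors, was 7.91 ± 0.52 against 5.27 ± 0.69, and Klrc1, its NKG2A partner, 5.82 ± 0.59 against a poor mean of 4.05 below the negative controls. Il2rb, a chain of the interleukin-2 and interleukin-15 receptors, was 3.98-fold higher and overlapped. T cells also express several of these genes, so the list does not count NK cells alone.

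B cell genes were highest in a pair of rich tumours. Of 11 measured genes, 10 had a higher mean in rich tumours and 2 had no overlap, by narrow margins. These were Blnk, a B cell receptor adaptor, with a lowest rich value of 6.62 and a highest poor value of 6.48, and Cd22, an inhibitory B cell receptor, with 5.57 and 5.54. The list score was 3.59 in combination mouse 4 and 1.50 in combination mouse 3, but -0.36 to 0.18 in the other 5 rich tumours, within or near the poor range of -0.84 to 0.26. The difference of 1.06 was 0.32 without those 2 tumours, where Blnk differed by 1.55 and Cd22 by 1.11. Cd79b, a signalling chain of the B cell receptor, reached 9.49 in rich tumours and ran down to 3.97. Genes of lymphoid organ stroma moved with them. Of these 9 genes, 8 had a higher mean in rich tumours, Madcam1 had a lower one, and none was free of overlap. Their score was 2.63 in combination mouse 4 and 0.99 in combination mouse 3, against -0.51 to 0.27 in the other 5, and their difference of 0.61 was 0.06 without the pair. Cxcl13, which draws B cells into follicles, and Ccl21a, which draws T cells and dendritic cells into lymph nodes, reached 10.09 and 10.80 at their highest among rich tumours. Whether lymph node tissue or structures within the tumour gave this RNA was not tested.

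Plasma cell genes depended less on combination mice 3 and 4, with a list difference of 0.93 that was 0.83 without them. Jchain, which joins secreted antibody subunits, was 10.70 ± 0.88 in rich tumours and 7.29 ± 1.44 in poor tumours. Its lowest rich tumour was lenvatinib mouse 5 at 9.23, which lay below lenvatinib mouse 3, a poor tumour at 9.37. Mzb1 was 7.41 to 8.28 in combination mice 2, 4 and 5 and 4.60 to 5.68 in the other rich tumours. Of the 9 plasma cell genes, 8 had a higher mean in rich tumours, 2 by at least 1 log2 unit, and none was free of overlap. Rich tumours had list scores from -0.08 in lenvatinib mouse 5 to 1.09 in combination mouse 4.

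Chemokines and their receptors that draw lymphocytes fell into those that separated the groups and those that did not. Cxcl16, a chemokine of macrophages and dendritic cells, ran from 10.48 to 11.83 against 8.08 to 10.36, and its receptor gene Cxcr6, found on resident and effector T cells, was 6.79 ± 0.47 against 4.89 ± 0.31. Ccr2, the receptor that guides monocytes, was 7.13 ± 0.39 against 5.31 ± 0.41, also without overlap. The interferon-induced chemokines differed by less than the SDs of either group. Cxcl9 was 9.76 ± 0.68 in rich and 9.44 ± 1.11 in poor tumours, and Cxcl10 was 6.04 ± 0.64 and 5.99 ± 0.50.

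The interferon-gamma response list as a whole differed by 0.33 with SDs of 0.53 and 0.68, and none of its 11 measured genes had separate groups. The difference was 0.15 without anti-PD1 mouse 2. Rich tumours ran from -0.67 in placebo mouse 6 to 0.91 in lenvatinib mouse 5, and poor tumours from -1.28 to 0.39. Within the combination the sign was the other way, since the 4 rich tumours averaged 0.08 and combination mouse 1 had 0.24. Ifng itself was 4.78 ± 0.65 in rich tumours and 3.98, below the negative controls, in poor tumours. Type I interferon response genes differed by 0.27, and none of 10 had separate groups.

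Of 7 measured MHC class II genes, which mark antigen-presenting cells, all had higher means and 3 had no overlap. H2-Ab1 and H2-Aa, the beta and alpha chains of the I-A molecule, were 3.14-fold and 2.26-fold higher. MHC class I genes, present on most cells, had 9 of 9 higher means and a list difference of 0.43. None of the 9 had separate groups, from which nothing is read beside the 1.99% of all probe sets. B2m, the shared light chain, was 12.65 ± 0.11 against 12.53 ± 0.15. H2-K1, a class I heavy chain, was 11.86 to 12.08 in 6 rich tumours and 11.13 in placebo mouse 6, inside the poor range of 10.06 to 11.37.

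Macrophage genes had the largest list difference of the 32, at 1.73, above that of T cell receptor genes at 1.58. All 12 measured genes were higher on average and 9 of the 12 had no overlap. The score was 0.83 ± 0.43 in rich and -0.90 ± 0.34 in poor tumours. Trem2, a lipid-sensing receptor of tissue and tumour macrophages, ran from 8.50 to 10.42 against 5.50 to 7.23, 6.57-fold apart. Aif1 was 4.21-fold, Adgre1, a macrophage surface receptor, 4.10-fold and C1qc, a complement subunit made by macrophages, 3.72-fold higher. Combination mouse 4, with the highest T cell score, had the lowest macrophage score of the rich tumours, 0.27, and the next, combination mouse 5, had the highest, 1.41.

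Other myeloid cells differed less. Neutrophil genes had 10 of 10 higher means and a difference of 1.05, but 1 gene without overlap, Clec4d, a lectin receptor also found on macrophages, at 8.83 ± 0.92 against 5.86 ± 1.20. Dendritic cell genes differed by 0.63, with Batf3, the transcription factor of cross-presenting dendritic cells, at 7.69 ± 0.34 against 6.62 ± 0.34 as the single gene of 12 without overlap. Clec9a and Xcr1, receptors of the same dendritic cells, each had 5 of 7 rich tumours above all poor tumours. The poor mean of Clec9a was below the negative controls. Of the 12 genes, 11 had a higher mean in rich tumours and 1, Zbtb46, a lower one. Mast cell genes differed by 0.39, less than their SDs, with no gene of 6 free of overlap.

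**Figure D2:**
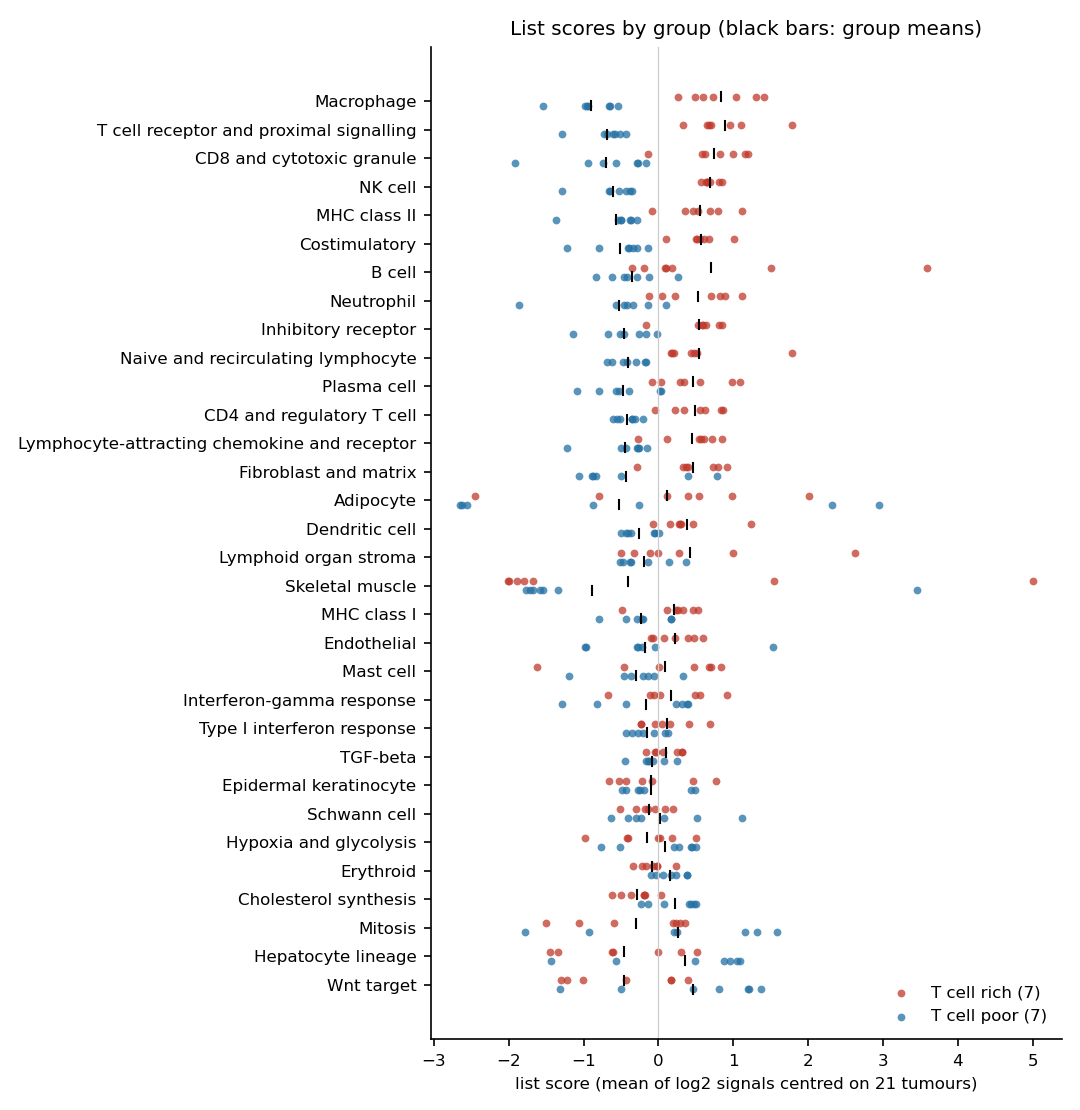
Score of 32 gene lists in each of 7 T cell rich (red) and 7 T cell poor (blue) tumours, in log2 units centred on 21 tumours and ordered by the difference of means (black bars). Red and blue points are separate in 8 lists, with macrophage genes at the top (difference 1.73), and hepatocyte lineage and Wnt target genes at the bottom are lower on average with wide overlap.

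Across the 32 lists, 8 had scores with no overlap between the groups. These were the lists of the T cell receptor, CD8 T cells, CD4 T cells, costimulation, naive lymphocytes, NK cells, macrophages and MHC class II. Of the listed genes, 42 were higher without overlap and 1 was lower, beside the 1.99% and 0.203% over all probe sets. Zap70, Lat, Nkg7, Gzmb, Prf1, Il2ra, Tigit, Cxcl9, Cxcl10, Ifng, B2m, Afp, Madcam1, Zbtb46 and Tnfsf4 were named after their values were seen.

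Outside the lists, the 15 named genes with the largest difference among those with separate groups ran from 2.49 to 3.49. Slamf7, a receptor of NK, plasma and myeloid cells, was at the top, with rich tumours at 7.88 to 9.95 and poor tumours at 4.85 to 6.92. Clec12a, an inhibitory lectin of myeloid cells, was 9.93-fold higher, with 8.46 ± 0.64 against 5.15 ± 0.64. Atp6v0d2, a proton pump subunit of macrophages and osteoclasts, was 9.12-fold higher, with 9.50 ± 0.49 against 6.31 ± 1.35. Lyz2, the lysozyme of macrophages and neutrophils, ran from 11.67 to 12.55 against 8.46 to 10.75.

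The rest of the 15 fell between 2.49 and 2.95 in difference. They were Emb, a cell adhesion glycoprotein, Dock2, which drives leukocyte migration through Rac, Tlr13, a receptor for bacterial RNA, and Samsn1, an adaptor of lymphocytes and mast cells. They also held Clec4a3, a lectin receptor, Cd200r1, an inhibitory receptor of myeloid cells, Rgs1, a regulator of chemokine receptor signalling, Pla2g7, a secreted phospholipase of macrophages, and Ms4a4b, a T cell membrane protein. Atp8b4, a phospholipid transporter, and Cd48, the ligand of the receptors CD2 and CD244, closed the list. Ms4a4b had a poor mean of 4.06, below the negative controls, as did 28 of the 441 probe sets.

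**Figure D3:**
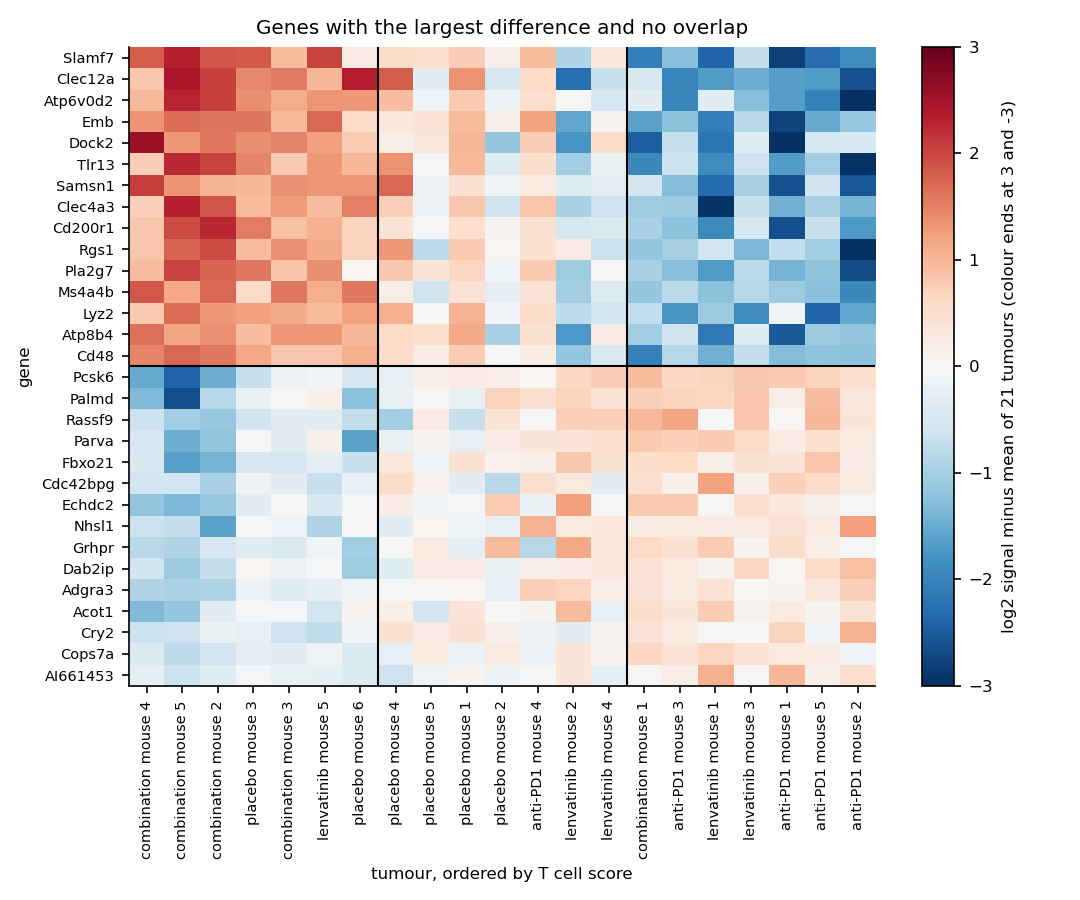
Log2 signal minus the mean of 21 tumours (colour, ending at 3 and -3) for the 15 genes most above and the 15 most below in rich tumours among those without overlap and outside the gene lists, with tumours in order of T cell score. The upper block turns from red to blue across the middle tumours, and for Pcsk6 and Palmd the deepest blue is in combination mouse 5.

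Genes lower in rich tumours without overlap and outside the lists had smaller differences. Pcsk6, a protease that cleaves growth factor precursors, ran from 5.74 to 8.04 in rich and from 8.61 to 9.06 in poor tumours, a difference of -1.68. Palmd, a paralemmin family protein, ran from 5.61 to 8.42 against 8.45 to 9.19, and Rassf9 from 4.32 to 5.11 against 5.45 to 6.63. Parva, an actin-binding adaptor of integrin adhesions, ran from 5.93 to 7.70 against 7.78 to 8.32, and Fbxo21, a ubiquitin ligase subunit, was 5.75 ± 0.52 against 6.99 ± 0.22. For Pcsk6 the poor tumours lay close together, with an SD of 0.15, and the rich tumours spread, with an SD of 0.85, while for Rassf9 the poor tumours spread more (SD 0.49 against 0.31). The lowest Pcsk6 and Palmd values, 5.74 and 5.61, were both in combination mouse 5.

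The remaining 10 of the 15 differed by -1.02 to -0.74. They were Cdc42bpg, Echdc2, Nhsl1, Grhpr, Dab2ip, Adgra3, Acot1, Cry2, Cops7a and AI661453. Among them are metabolic enzymes (Grhpr, which detoxifies glyoxylate, and Acot1, which hydrolyses acyl-CoA), a circadian repressor (Cry2) and an inhibitor of Ras signalling (Dab2ip). Bnip3, a mitophagy receptor induced by low oxygen, was the single listed gene lower without overlap, at 8.42 ± 0.29 against 9.26 ± 0.15. The hypoxia and glycolysis list as a whole differed by -0.24, less than its SDs of 0.49 and 0.51.

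Promoters of these genes were read from RefSeq on build GRCm38.p6, 250 bases before to 50 after each start site, where the table holds the gene. That gave 327 of the 401 named genes higher without overlap, 32 of the 43 named genes lower without overlap, and 15691 genes of the array in all. Of 10 letter patterns counted on both strands, AGGAAGT was in 24.2% of the higher set, 9.38% of the lower set and 10.3% of all promoters. The longer GAGGAAGT, which contains it, was in 10.7%, 0% and 3.53%, and GAGGAA in 42.2%, 21.9% and 30.3%. TGTGGT was in 28.4%, 18.8% and 16.5%, and TGTGGTTT, which contains it, in 3.98%, 0% and 1.82%. GGGGCGGGG went the other way, at 13.5%, 37.5% and 18.1%. CAGGTG was in 20.2%, 34.4% and 22.1%, CAGCTG in 22.0%, 18.8% and 18.0%, TATAAA in 16.8%, 9.38% and 14.6%, and TGACTCA in 5.50%, 9.38% and 5.51%. GGAA is the core that ETS family factors bind, and TGTGGT the core of RUNX factors, both families of blood cell development. A match here is a run of letters and not a bound site.

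The promoters of 2 genes of the score, of Il7r and of Lyz2 are shown because they hold AGGAAGT, so they do not stand for all genes that separated the groups. The letters lie on the strand opposite to the gene and are printed as their reverse complement ACTTCCT in capitals. Each promoter runs 5′ to 3′ along its gene's strand. The Cd3d promoter lies at chr9:44981536-44981835 on the plus strand, that of Cd3e at chr9:45009562-45009861 on the minus strand, that of Il7r at chr15:9529827-9530126 on the minus strand and that of Lyz2 at chr10:117282223-117282522 on the minus strand. The capitals begin at base -199, -18, -49 and -100 from the start site.
Cd3d: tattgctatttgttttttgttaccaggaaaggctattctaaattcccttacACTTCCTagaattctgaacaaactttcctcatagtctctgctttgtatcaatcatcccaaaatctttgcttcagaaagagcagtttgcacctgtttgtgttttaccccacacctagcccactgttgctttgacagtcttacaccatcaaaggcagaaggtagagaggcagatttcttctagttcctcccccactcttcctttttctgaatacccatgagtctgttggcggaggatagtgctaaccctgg
Cd3e: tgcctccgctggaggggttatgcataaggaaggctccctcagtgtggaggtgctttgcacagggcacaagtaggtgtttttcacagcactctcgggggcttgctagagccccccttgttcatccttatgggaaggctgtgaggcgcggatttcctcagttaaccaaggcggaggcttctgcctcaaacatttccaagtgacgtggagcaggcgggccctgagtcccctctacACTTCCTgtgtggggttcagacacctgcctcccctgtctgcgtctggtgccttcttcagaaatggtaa
Il7r: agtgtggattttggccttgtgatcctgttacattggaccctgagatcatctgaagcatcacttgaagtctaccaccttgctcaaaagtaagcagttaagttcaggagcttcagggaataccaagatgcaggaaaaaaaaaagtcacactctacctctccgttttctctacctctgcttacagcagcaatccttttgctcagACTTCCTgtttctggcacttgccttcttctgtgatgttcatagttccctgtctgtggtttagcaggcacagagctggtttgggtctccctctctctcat
Lyz2: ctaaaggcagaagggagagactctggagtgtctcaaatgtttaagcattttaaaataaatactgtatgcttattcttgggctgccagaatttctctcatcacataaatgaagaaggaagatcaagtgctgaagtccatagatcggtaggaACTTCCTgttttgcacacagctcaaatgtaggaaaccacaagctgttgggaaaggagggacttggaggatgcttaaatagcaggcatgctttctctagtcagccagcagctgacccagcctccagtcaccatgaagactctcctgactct
The windows of Cd3g, Slamf7, Clec12a and Trem2 did not hold these 7 letters.

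Genes of the tumour cells were lower on average in rich tumours, with wide overlap. All 14 measured hepatocyte lineage genes, which Hepa1-6 cells express, had lower means, and the list differed by -0.81 with SDs of 0.77 and 0.98. Ttr, a hormone carrier made by liver cells, was 6.09 ± 0.98 against 7.56 ± 1.70, Krt18, a keratin of hepatocytes, 10.55 ± 0.74 against 11.51 ± 0.36, and Rbp4, the retinol carrier, 11.29 ± 0.82 against 12.26 ± 0.29. Wnt target genes differed by -0.92, with Axin2, a feedback inhibitor of the pathway, at 6.93 ± 0.98 against 8.09 ± 1.28. Mitosis genes differed by -0.56, less than their SDs of 0.76 in rich and 1.24 in poor tumours, and by -0.90 without anti-PD1 mouse 2 or -0.34 without anti-PD1 mouse 5. Cholesterol synthesis genes differed by -0.51.

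The poor tumours lay on both sides in these lists. In 5 of them, combination mouse 1, anti-PD1 mice 3 and 5 and lenvatinib mice 1 and 3, the hepatocyte lineage score was 0.49 to 1.09 and the fibroblast and matrix score -1.06 to -0.50. In anti-PD1 mice 1 and 2 the hepatocyte lineage score was -0.56 and -1.44, the fibroblast score 0.40 and 0.79, and the adipocyte score 2.32 and 2.95. Low T cell RNA thus came both in tumours with high tumour cell RNA and in samples with high stromal and fat RNA. Among rich tumours the hepatocyte lineage score ran from -1.45 in placebo mouse 6 to 0.51 in lenvatinib mouse 5. All 9 adipocyte genes that were measured contributed to their score, which ran from -2.45 to 2.01 in rich and from -2.66 to 2.95 in poor tumours.

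Fibroblast and matrix genes had 10 of 11 higher means and a difference of 0.89, with none of the 11 free of overlap. Lum, a collagen-binding proteoglycan, was 10.35 ± 0.70 against 7.67 ± 1.75, and Postn, a matrix protein of activated fibroblasts, 11.36 ± 0.36 against 10.07 ± 0.66. Endothelial genes differed by 0.40 with an SD of 0.84 in poor tumours, where anti-PD1 mouse 2 scored 1.53 and the other 6 -0.98 to -0.04. Without that tumour the endothelial difference was 0.69. Genes of the TGF-beta pathway differed by 0.19, Schwann cell genes by -0.15 and erythroid genes by -0.24. Keratinocyte genes scored -0.10 in both groups.

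**Figure D4:**
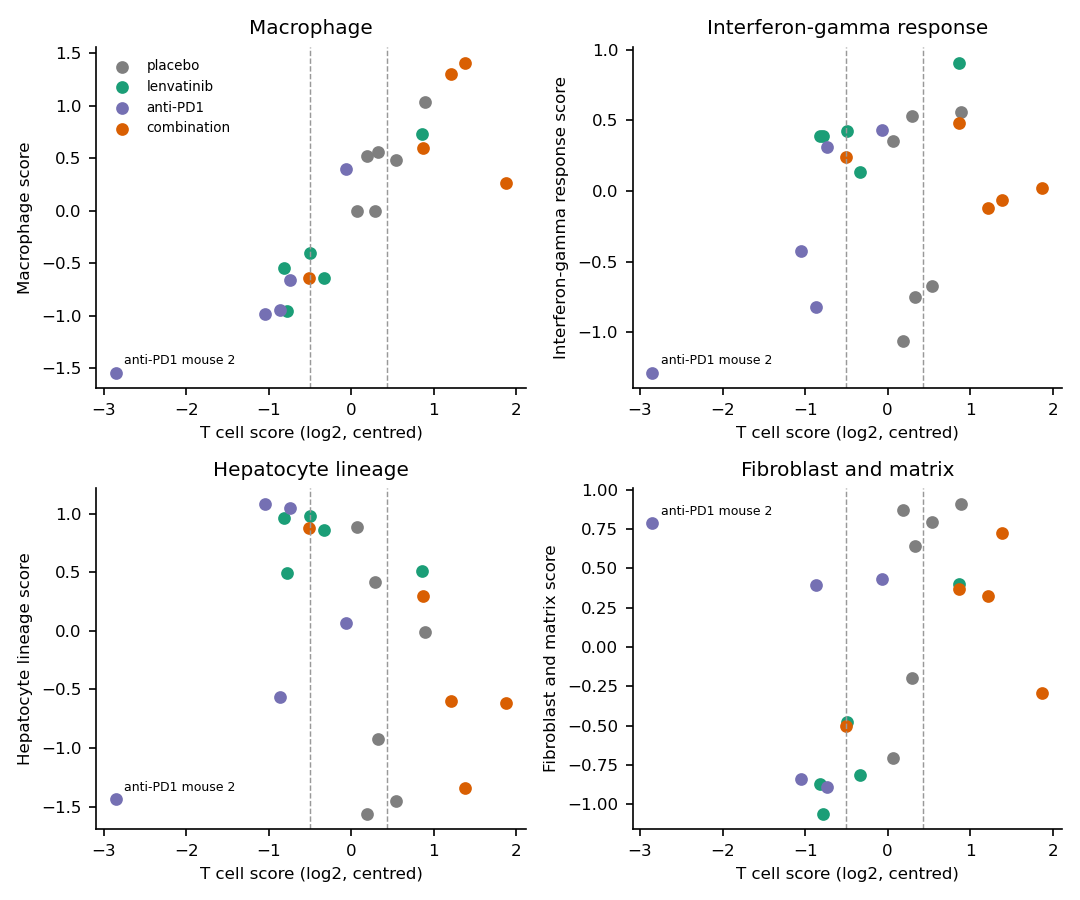
Scores of 4 gene lists against the T cell score in 21 tumours, coloured by arm, all in centred log2 units, with dashed lines at the edges of the rich and poor groups. Macrophage scores rise along the T cell score, interferon-gamma scores lie scattered, and poor tumours include both high and low hepatocyte lineage scores (1.09 and -1.44 at the ends).

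The genes whose signal was most like the T cell score over all 21 tumours, apart from the 4 that make it, were Rac2, Cd8b1 and H2-Aa. Their Pearson correlations with the score were 0.97, 0.96 and 0.95, and Spearman's were 0.97, 0.96 and 0.96. Rac2 is a GTPase of blood cells, and it ran from 9.13 to 10.74 in rich and from 6.60 to 8.83 in poor tumours. Next came Ctsw, a cathepsin of cytotoxic lymphocytes, Il7r, Selplg, the selectin ligand of leukocytes, Arhgdib, Tnfaip8l2, Ms4a6b and Psd4, from 0.95 down to 0.94. Leaving out the 2 tumours farthest from the median score left 0.90 to 0.97 in 19 tumours for the 10 genes. The tumours share arms and arrays, and the genes were picked for this value, so it is a description.

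Within arms the comparison rests on few tumours. In the combination, 4 rich tumours stood against combination mouse 1, and the T cell receptor list differed by 1.83, macrophage genes by 1.54, NK genes by 1.36 and MHC class II genes by 1.18. In lenvatinib, mouse 5 stood against mice 1 and 3, and the same lists differed by 1.20, 1.48, 1.01 and 0.93. Hepatocyte lineage genes differed by -1.44 in the combination and -0.22 in lenvatinib. Placebo held rich and middle tumours only, and anti-PD1 poor and middle tumours only, so neither gave a value.

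With each arm's mean taken away from its tumours, list differences were smaller, at 0.88 for macrophage, 0.81 for T cell receptor and 0.73 for NK genes. The 2 highest against the 2 lowest tumours of each arm, 8 against 8, gave 0.82, 0.80 and 0.68. Far fewer probe sets then had separate groups. There were 11 higher and 0 lower with arm means removed, and 0 higher and 1 lower with 8 against 8. The 8 against 8 overlap in the T cell score itself. Anti-PD1 mouse 3 at -0.74 is on the high side and combination mouse 3 at 0.87 on the low side. Taking away arm means also shrinks the genes of the score, Cd3d from 2.28 to 0.93. Low counts were thus built into both settings, and nothing is read from them about separation within arms.

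**Figure D5:**
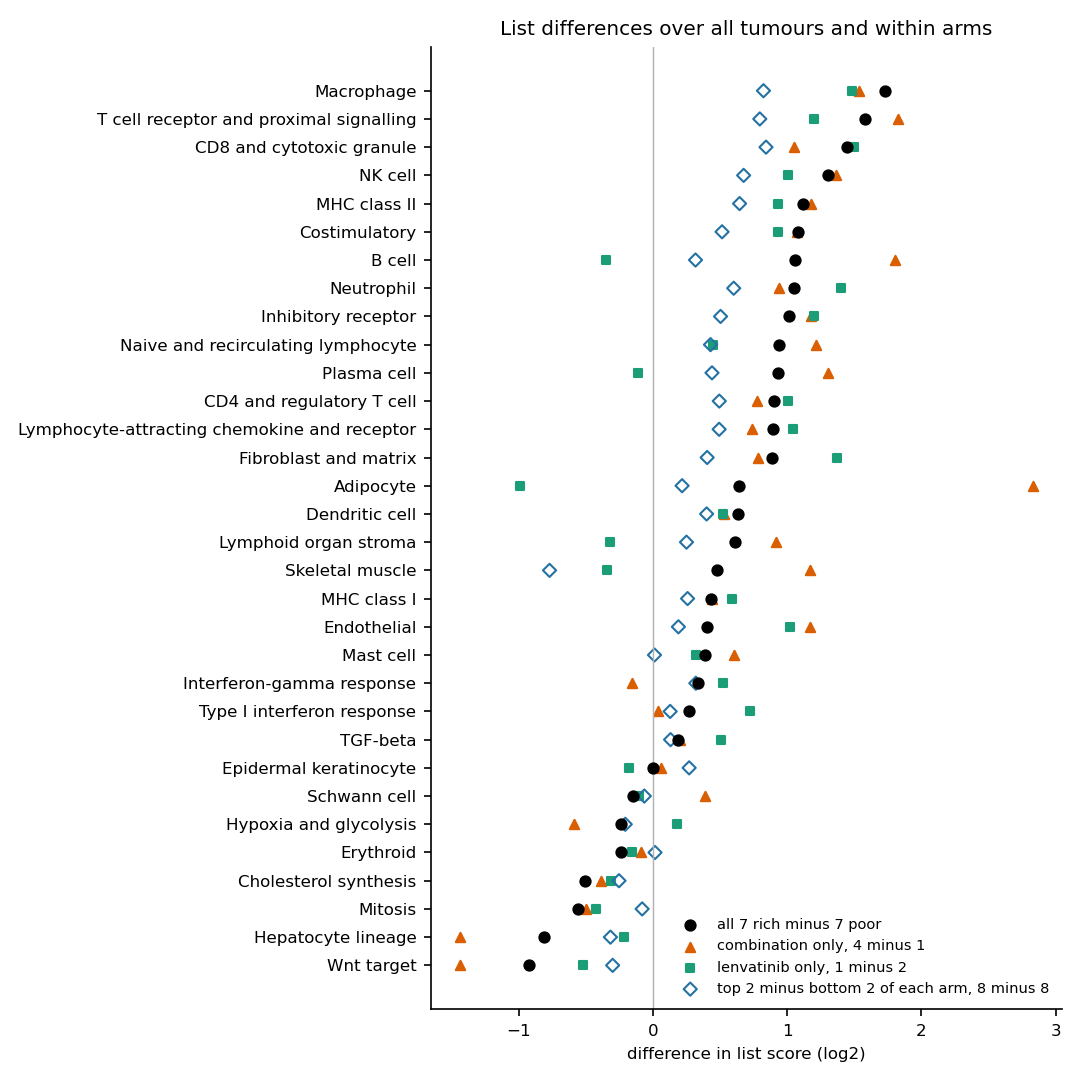
Difference in list score (log2) for all 7 rich minus 7 poor tumours (black), for the combination alone (orange), for lenvatinib alone (green) and for the 2 highest minus the 2 lowest of each arm (open diamonds). Macrophage and T cell lists lie right of 0 in all 4, while B cell, plasma cell and adipocyte lists are among those left of 0 in lenvatinib.

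The arms themselves were tested with limma over all 21 tumours. No probe set of 22206 differed among the 4 arms at a Benjamini-Hochberg adjusted p under 0.05 (0%), where the smallest adjusted p of limma's F test was 0.556 and 1263 had an unadjusted p under 0.05. The combination against anti-PD1, the arms with the highest and lowest mean score, likewise gave 0 higher (0%) and 0 lower (0%). The smallest adjusted p was 0.124, and unadjusted p-values under 0.05 went to 1078 probe sets higher and 619 lower. Without combination mouse 1 the counts at the adjusted threshold were 308 higher and 30 lower, and without anti-PD1 mouse 4 they were 85 and 2. With array weights, which count outlying arrays less, they were 374 and 130, and 142 for the F test.

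This pair of arms was picked by its mean score, so the genes of the score and those chosen from the rich and poor groups are given for it as values with no test, and the other p-values carry that choice. Cd2 was 7.83 ± 0.75 (SD, n = 5) in the combination and 6.06 ± 0.45 (n = 5) in anti-PD1. Rac2 was 9.82 ± 0.76 against 7.81 ± 0.75, Cd8b1 9.62 ± 0.95 against 7.14 ± 1.43, and Atp6v0d2 9.23 ± 1.04 against 6.12 ± 1.70. Pdcd1 differed by 1.37 with a standard error of 0.53 (limma adjusted p = 0.422) and Cd274 by 0.96 with 0.41 (limma adjusted p = 0.541). This comparison shares 9 tumours with that of rich and poor tumours, all 5 of the combination and 4 of anti-PD1, so the values stand side by side and neither supports the other. The median difference between these arms was 1.17 for the 441 probe sets higher in rich tumours, -0.48 for the 45 lower and -0.01 for all.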

How the data were processed

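Total RNA of 21 tumours, each from its own mouse, was measured on Clariom S mouse arrays. The deposited values are log2 signals, which the authors made with RMA and oligo, per the submitters' processing notes, where no versions are given. The series table had 29129 rows, of which 6923 controls were left out and 22206 probe sets kept with no filter on low values. Of these, 19572 carried 1 gene symbol and 2634 none. For the 55 genes with several probe sets the brightest was used. The median of 5222 negative controls, 4.08, served as a floor below which no fold is given.

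Tumours were ranked by the T cell score and compared by means, SDs and overlap, without a test. Arms were tested with limma 3.58.1 in R 4.3.3 (lmFit and eBayes on log2 values, 4 arm means, Benjamini-Hochberg), checked on simulated data. The number of arrays limits the precision. A list score is the mean of its members' centred values, and 293 of 329 listed genes were measured. Tumours, members and lists were chosen with earlier results of these data known. Genes named are the 4 of the score and up to 15 in each direction outside the lists with the largest difference and no overlap. Up to 4 per list with the largest difference, Pdcd1 and its ligands, and the 10 most like the score were added. So were those stated in the text as named after their values were seen. Same-numbered mice of different arms are different animals, so mouse number was not in the fit. Alternatives changed the score, group size, normalization, arm adjustment, low-value filter and tumours.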

Additional observations from a re-analysis of the deposited data

Results flagged for a closer look

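Dixon's test for a tumour far from the rest of its group was passed by 61 of 406 groups of values checked (15%). Many of these groups hold the same tumours, and their genes go together. Some were also cut or picked by the values checked, so no chance rate applies to this share. In 3 lists every rich tumour lay on 1 side of every poor tumour in the combination and on the other side in lenvatinib.

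Anti-PD1 mouse 2 stood apart from the other 6 poor tumours most often. It had the lowest T cell score, -2.85, with Cd3d at 4.02, Cd3g at 4.65 and the T cell receptor list at -1.29. It was also lowest for NK cell genes (-1.29), lymphocyte-attracting chemokines (-1.23), neutrophil genes (-1.86) and MHC class II genes (-1.38). Lymphocyte genes at the low end there were Cd8b1 at 4.92, Gzmk at 3.39, Il7r at 3.48, Ctsw at 4.11, Rgs1 at 3.80, Ms4a4b at 3.31 and Tnfaip8l2 at 4.90. Myeloid and antigen-presenting genes were low as well, with Aif1 at 5.61, C1qc at 6.37, Clec4d at 3.46, Retnlg at 4.29, Atp6v0d2 at 3.71, Cxcl16 at 8.09 and H2-DMa at 7.62. Ube2c, of mitosis, was low at 6.17.

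The same tumour was high in genes of vessels and muscle. The endothelial list was at 1.53, with Eng at 7.85, Tek at 7.55 and S1pr1 at 7.17, and Tgfb3 was at 8.98 and Nhsl1 at 7.85. The skeletal muscle list was at 3.46, with Mylpf at 9.06, Tnni2 at 10.14, Myh4 at 11.10 and Tnnt3 at 8.55. The adipocyte list was at 2.95 and the hepatocyte lineage list at -1.44. Afp, of the hepatocyte lineage list, was at 3.75, below the negative controls, against 10.04 to 11.94 in the other poor tumours. Low hepatocyte lineage RNA was also seen in a rich tumour, placebo mouse 6, with the list at -1.45 and Afp at 5.05. Without anti-PD1 mouse 2 the macrophage difference of 1.73 was 1.62 and the T cell receptor difference of 1.58 was 1.48.

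Placebo mouse 6 stood below the other 6 rich tumours in genes of antigen presentation and checkpoints. Its MHC class I list was at -0.49, with H2-K1 at 11.13, H2-D1 at 9.13 and Tapbp at 7.91, and H2-Ab1 of class II was at 10.33. Its inhibitory receptor list was at -0.17, with Ctla4 at 4.06, and Pdcd1lg2 was at 8.06. Tnfrsf4 was at 6.66, Ptpn22 at 7.72, Eng at 4.69 and Tgfb1 at 7.49. Its array was the 1 rich array with bright hybridization controls, and their part in these values was not tested.

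Combination mouse 4 stood above the other 6 rich tumours in genes of naive lymphocytes and B cells. The naive lymphocyte list was at 1.78, with Lef1 at 8.82 and S1pr1 at 7.85, and the dendritic cell list at 1.23. Cd22, an inhibitory B cell receptor, was at 9.03, H2-Oa, a class II chaperone of B cells, at 9.06, Cd96 at 7.46 and Samsn1 at 8.996.

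Other single values were spread over several tumours. Lenvatinib mouse 5, at a T cell score of 0.86, stood above the other 4 mice of its arm, and its Fabp4 was low among rich tumours at 9.43. Combination mouse 5 had Entpd1 at 10.44, highest among rich tumours, and Klrb1c at 5.41, lowest. Lenvatinib mouse 1 had Clec4a3 at 4.30, lowest among poor tumours, and Cd79b at 5.54 and Ccl19 at 7.15, highest.

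Rich minus poor had opposite signs in the combination and in lenvatinib for 9 of 32 lists. In 3 of the 9 no tumour overlapped within either arm, where 4 rich tumours stood against 1 poor and 1 against 2, and these differences between arms were not tested. The B cell list differed by 1.80 in the combination and -0.35 in lenvatinib, the plasma cell list by 1.31 and -0.11, and the hypoxia and glycolysis list by -0.59 and 0.18.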

How the results depend on the processing

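Counts of probe sets without overlap depended on the tumours compared. The 5 highest against the 5 lowest gave 884 higher and 217 lower, and 9 against 9 gave 152 and 6. Arm deviations gave 11 and 0, and the top 2 against the bottom 2 of each arm 0 and 1. The first shrinks the genes of the score and the second has groups that overlap in it, so low counts were built in. Leaving out bright-control arrays gave 1040 and 565, and cyclic loess normalization gave 104 lower. Leaving out combination mouse 2 and anti-PD1 mouse 2, chosen after seeing the data for their muscle genes, gave 859 and 260. Leave-one-out ranges were 443 to 824 and 49 to 228, where a count can only stay or rise. A score from 4 other T cell genes (of 6 listed, since 2 had no matching symbol) gave 407 higher and 55 lower, and leaving out the dimmest 40% of probe sets 414 and 34. Over 24 alternatives 28 of 32 lists kept their sign. The erythroid list turned from -0.24 to 0.015 with the top 2 against the bottom 2 of each arm, and the cause was not tested.

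For the arms, array weights gave 142 probe sets by the F test, 374 higher and 130 lower in the combination. Leave-one-out ranges were 0 to 308 higher and 0 to 30 lower, with 85 and 2 without anti-PD1 mouse 4. With mouse number as a replicate block the counts were 0, 0 and 0. In the pairing check, same-numbered mice of the combination and anti-PD1 had correlations of -0.27 to 0.35 in their deviations from arm means, 3 of 5 over 0.1, and 3 of 21 tumours were closest to their own number in another arm, so the numbers were not taken as pairs.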
